A study of Mus musculus with 6 samples.

Results

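The mouse miRNAs from miR-6896 to miR-7094 form a block of the miRNA registry that was entered largely from hairpins cut out of introns by splicing. They were selected from a table of mature miRNA counts by name alone: every row called mmu-miR- followed by a number in that range, with or without a letter, and with either arm. The rule found 361 rows of 1626 in the table, 183 for 5p arms and 178 for 3p arms, covering 195 hairpins and 193 of the 199 numbers. For 166 of the hairpins both arms had a row.

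Small RNA was sequenced from total RNA of mouse fetal liver, strain C57BL/6J, in 6 libraries, as the sample labels describe them. The series' design text instead calls the experiment HITS-CLIP, a method that sequences RNA crosslinked to a protein, and the counts are read here as the sample labels have it. Of these libraries, 3 were wild type (WT, libraries 1 to 3) and 3 had the genotype miR-144/451-/- (KO, libraries 4 to 6), a deletion of the miR-144/451 locus on both alleles. Each library was made from the same number of cells, and the study asks what the locus does in red cell development. Embryonic day, sex and whether replicates came from separate embryos are not given in the sources used here, so the p-values rest on variation among libraries that could be technical.

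A mirtron is a miRNA whose hairpin is released by the splicing machinery instead of by the nuclease Drosha. In the plain form a short intron is spliced out, its lariat is opened, and the whole intron folds into a hairpin that Dicer cuts. In a tailed mirtron splicing makes only 1 end of the hairpin and the rest of the intron is trimmed away. A hairpin that ends where the intron ends carries the splice acceptor letters AG at the 3′ end of its 3p arm, often after a run of pyrimidines, and a hairpin that starts where the intron starts carries the donor letters GU. Most mirtrons give few reads in most tissues.

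Sequences show this layout directly. They are RefSeq entries on GRCm38.p6, and 318 of the 361 rows matched a mature sequence. The hairpins printed are those the results turn on, with the mature arms that have a RefSeq entry in capitals (for Mir6957 the 3p arm alone, since miR-6957-5p had no match): a whole intron of Dnase1l1 (Mir7091), a whole intron of Cherp (Mir7068), the hairpin of the most abundant miRNA of the block, at the end of an intron of Pom121 (Mir7033), and hairpins at the 3′ end (Mir7079, Mir7052 and Mir6957) or the 5′ end (Mir6936) of an intron.
Mir7091: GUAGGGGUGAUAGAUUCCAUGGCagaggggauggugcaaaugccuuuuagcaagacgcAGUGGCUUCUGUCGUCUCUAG
Mir7068: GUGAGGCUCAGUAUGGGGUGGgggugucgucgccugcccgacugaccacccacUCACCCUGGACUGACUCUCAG
Mir7033: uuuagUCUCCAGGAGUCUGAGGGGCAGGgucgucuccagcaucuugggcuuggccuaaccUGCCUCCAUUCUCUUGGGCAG
Mir7079: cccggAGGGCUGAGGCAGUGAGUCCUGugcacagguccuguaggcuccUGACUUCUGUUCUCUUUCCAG
Mir7052: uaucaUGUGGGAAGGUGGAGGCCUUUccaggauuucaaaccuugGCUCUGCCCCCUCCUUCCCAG
Mir6957: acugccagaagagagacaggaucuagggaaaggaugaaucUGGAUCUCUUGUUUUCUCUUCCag
Mir6936: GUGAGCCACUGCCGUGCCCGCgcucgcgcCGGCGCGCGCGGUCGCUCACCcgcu

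Both whole introns start with GU and end with AG, so each arm carries a splice site. The hairpins of Mir7033, Mir7079, Mir7052 and Mir6957 end with AG but start inside their introns. Mir6936 starts with the GU of an intron of Sirt7 and stops short of its end.

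The positions were compared with the introns of GENCODE M21, which uses the same build. Of 180 block hairpins with coordinates, 175 (97.2%) ended at the 3′ end of an annotated intron within 7 bases, and 167 ended on its last base. Of these 175, 14 were whole introns and 161 began further inside. Of the other 5, 3 started at the 5′ end of an intron, 1 lay inside an intron (Mir7036b, of Add1) and 1 overlapped an exon (Mir7025, of Pdgfra). Of 825 hairpins of all other mouse miRNAs in the same table, 38 (4.61%) ended at an intron end. The host introns of the 175 ranged from 67 to 36269 bases with a median of 479, and 50 were of 150 bases or fewer. The block was registered largely by this feature, so its layout describes the members and is no result about fetal liver.

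**Figure D1:**
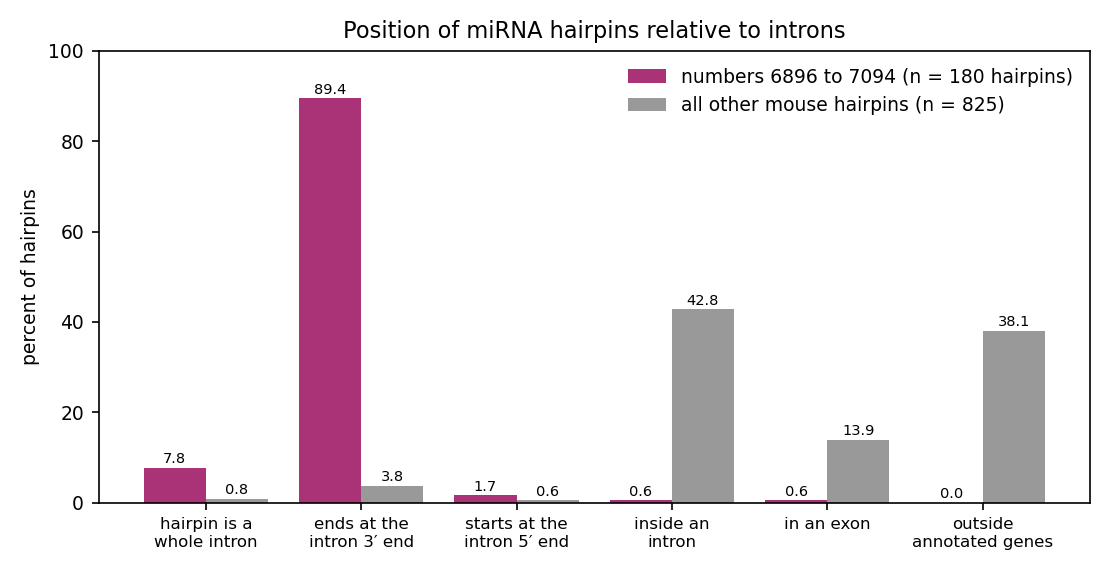
Percent of hairpins (vertical axis) by their position relative to annotated introns, for the block (magenta, n = 180) and for all other mouse hairpins in the RefSeq table (grey, n = 825). The 3′ end of an intron holds 89.4% of the block, and a further 7.8% are whole introns.

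The mature sequences carried the same marks. The 3p arm ended with AG in 119 of 156 matched block miRNAs (76.3%), against 49 of 449 matched 3p arms outside the block (10.9%). C or U made up 71.8% of the bases of the block's 3p arms and 54.3% of the others. The block's 5p arms were rich in G, at 44.2% of bases against 29.4%. Few of them, 14 of 162, started with GU (8.64%), against 4.45% outside the block.

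The seed, bases 2 to 8, decides most of a miRNA's targets, and the 318 matched members had 296 different seeds. A seed was shared with another row of the table by 63 members, of which 36 shared it with a miRNA outside the block. The leading miRNAs of the results are printed with their seeds in capitals.
miR-7033-5p: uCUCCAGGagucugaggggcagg
miR-6936-3p: cGGCGCGCgcggucgcucacc
miR-6967-3p: uCAUCUUUaucucuccccag
miR-6911-3p: uCAAUCACacucuguccacag
miR-7015-3p: uCUCACUGuccucugcacuag
miR-7079-3p: uGACUUCUguucucuuuccag
miR-7091-5p: gUAGGGGUgauagauuccauggc
miR-7091-3p: aGUGGCUUcugucgucucuag
miR-7065-3p: uUGGUUUUccuguuugcacag
miR-6989-3p: uGUCCACUgucucuggucccag
miR-6988-3p: uGACCUCUguaucuccugccag
miR-7068-3p: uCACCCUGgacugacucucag
miR-7052-3p: gCUCUGCCcccuccuucccag

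The seed of miR-7015-3p, with 926 counts in all libraries, was shared by miR-6992-3p, with 31. The seed of miR-7068-3p, with 318 counts, was shared by miR-7018-3p with 64 and miR-7023-3p with 9. None of the 318 matched members shared a run of 16 bases with another mature miRNA of the table, and of the 76 members averaging 10 counts or more, none stayed within 5% of another row in every library.

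Block miRNAs were widely detected at very low levels. At least 1 count was found for 352 of the 361 rows, and 9 rows had 0 in all libraries. Only 147 rows had a count in every library, 47 had counts in 1 library alone, and 148 had fewer than 10 counts over all 6. The median row held 14 counts in all, against 218 for the rows outside the block. The block made up 22.2% of the rows of the table and 0.0195% of its counts, 24877 reads.

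A few rows held much of this signal. miR-7033-5p alone gave 14.8% of the block's counts, and the 12 most abundant rows gave 48.0%. Of those 12, 10 were 3p arms. A mean of at least 100 counts was reached by 8 rows.

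miR-7033-5p comes from the end of a short intron of Pom121, a nuclear pore protein gene (chromosome 5, 135383730 to 135383810, minus strand). Its level was 39.7, 30.1 and 31.4 CPM (counts scaled to a library of 1000000 reads, with TMM factors) in WT libraries 1 to 3 and 29.2, 19.9 and 25.7 in KO libraries 4 to 6. It was the only tested member whose KO values all lay below its WT values, by a narrow margin. Its log2 fold of KO over WT was -0.44 (SE 0.23; edgeR quasi-likelihood test, Benjamini-Hochberg adjusted p = 0.523).

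Next in level stood miR-6936-3p, from the start of a 66-base intron of the deacetylase gene Sirt7 (chromosome 11, 120624823 to 120624876). It was found at 12.02, 13.3 and 7.46 CPM in WT and at 13.4, 12.3 and 11.3 CPM in KO, so the groups overlapped. For miR-6967-3p, whose hairpin was not placed against introns, the WT mean was 10.1 ± 0.70 CPM and the KO mean 11.3 ± 1.70 CPM (SD, n = 3 for both). The groups overlapped for it and for miR-7015-3p, with means of 6.80 ± 2.03 and 7.74 ± 1.48 CPM. miR-6911-3p, from Dazap1, a gene for an RNA-binding protein, had 7.12 ± 0.964 and 9.83 ± 1.83 CPM without overlap (log2 fold 0.46, SE 0.22; edgeR adjusted p = 0.509). miR-7079-3p, from an intron of the ribosomal protein gene Rpl13, stood at 4.97, 4.27 and 3.90 CPM in WT and at 6.61, 6.79 and 5.52 CPM in KO, without overlap (log2 fold 0.52, SE 0.21; edgeR adjusted p = 0.390). None of these differences passed the test.

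The remaining abundant 3p arms came from Cul4a, a ubiquitin ligase scaffold gene (miR-7065-3p), the kinase gene Map4k2 (miR-6989-3p), Syvn1, a gene for a ubiquitin ligase of the endoplasmic reticulum (miR-6988-3p), and Cherp (miR-7068-3p). Their means lay between 2.10 and 3.33 CPM in WT and between 2.61 and 4.41 CPM in KO. The genotypes did not overlap for miR-7065-3p and miR-6989-3p, with KO higher and no call (edgeR adjusted p = 0.564 and 0.598). They overlapped for miR-6988-3p and miR-7068-3p. A separation with KO higher was found for 15.9% of all 876 tested miRNAs, so it does not set a single member apart.

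The libraries themselves held 16243894 to 27089133 miRNA counts. Reads of miR-144 and miR-451a took 4606952 to 4997527 counts in WT and 3536 to 5565 in KO, so the genotype labels matched the deleted locus. The locus rows are part of the WT totals and nearly absent from the KO totals, so levels are given here either after TMM scaling or per 1000000 counts outside the locus. Where a library had no read of a miRNA, the upper limit (3 counts of its total) was 0.111 to 0.185 reads in 1000000, for counting error only. Markers of erythroid, liver, white blood and endothelial cells were present in all 6 libraries, such as miR-122-5p of hepatocytes at 29326 to 117809 CPM. WT library 1 stood apart in miRNAs of other tissues, with the highest value for 5 of 5 muscle or neural markers. The muscle miRNA miR-206-3p was at 204 CPM there and at 6.97 to 41.8 CPM in the others, and the neural miRNA miR-9-5p at 424 against 16.3 to 93.5 CPM. Their part in the results was not tested. The median log2 fold of the tested members was 0.46 without that library (98 members) and 0.42 with it (80 members). The filter on low counts was run anew, so the sets differ and the medians do not measure the part of that library. In bulk RNA, fewer cells of a type and less RNA per cell cannot be told apart.

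Summed over all 361 rows, block miRNAs took a larger share of the library in KO. Per 1000000 reads of the library, the sum was 166, 163 and 140.5 in WT (Wilson 95% intervals 160.1 to 171.2, 157.9 to 167.5 and 135.7 to 145.4) and 266, 236 and 234 in KO (258.4 to 274.3, 228.4 to 243.2 and 227.6 to 239.8). These intervals cover counting error only, since reads amplified by PCR are not independent molecules, and are no measure of the spread between libraries. Per 1000000 counts outside the miR-144/451 locus the WT libraries held 218, 197 and 176 and the KO libraries 266, 236 and 234. The KO libraries all lay above the WT libraries on both scales. The means outside the locus were 197 ± 21.1 in WT and 245 ± 18.3 in KO (SD, n = 3 each), a ratio of 1.24.

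Leaving out the leading member raised the ratio. Without miR-7033-5p the sums outside the locus came to 172, 165 and 142 for WT and 231, 214 and 206 for KO, with means of 159 ± 15.9 and 217 ± 12.7 (SD, n = 3 each), a ratio of 1.36. The 3p arms alone averaged 115 ± 10.9 and 152 ± 8.61 per 1000000 counts outside the locus, a ratio of 1.32. All 5p arms averaged 81.7 ± 10.3 and 93.5 ± 9.99, a ratio of 1.14, and their groups overlapped, with WT library 1 at 92.6 above KO libraries 5 and 6 at 86.6 and 88.9. The 5p arms without miR-7033-5p averaged 44.0 ± 5.44 and 65.0 ± 4.11, a ratio of 1.48. No p-value is given for a sum over members.

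More block miRNAs were also detected in each KO library. At least 1 count was found for 229, 247 and 229 members in WT and for 263, 257 and 275 in KO. At an equal depth of 15744105 counts outside the locus, 229, 236 and 223 members would be detected in WT and 261, 255 and 256 in KO, with means of 229 ± 6.56 and 257 ± 3.55 (SD, n = 3 each). The miRNAs outside the block, counted in the same way without the locus, gave 1038, 1019.5 and 1017 in WT and 1039, 1009 and 1036 in KO. Those groups overlapped, with means of 1025 ± 11.4 and 1028 ± 16.5. The comparison is not matched for level, since the median row outside the block held 218 counts against 14 in the block. The equal-depth count was chosen after the data were seen.

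**Figure D2:**
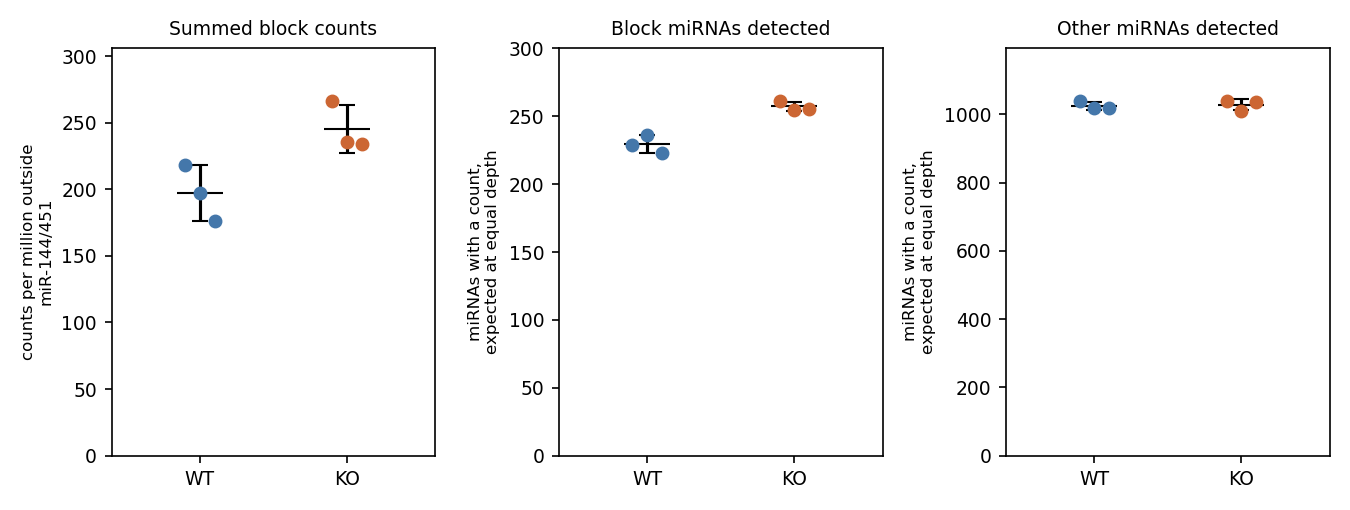
Block counts per 1000000 counts outside miR-144/451 (left), and the number of block miRNAs (middle) and of other miRNAs (right) with at least 1 count, expected at an equal depth of 15744105 counts; points are libraries, bars the mean and SD of 3 libraries. The 3 KO libraries lie above the 3 WT libraries in the left and middle panels and overlap them in the right panel.

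No single block miRNA differed between KO and WT in the test across all miRNAs. edgeR's filter on low counts kept 80 members of 361, and 0 of the 80 passed a Benjamini-Hochberg adjusted p of 0.05, where 0.799% of all 876 tested miRNAs passed. At an unadjusted edgeR p under 0.05, 19 members were higher in KO (23.8% of the 80; 9.59% of all tested miRNAs) and 0 were lower (1.71%). The 3 KO values lay above the 3 WT values for 28 members (35.0%; 15.9% of all tested) and below them for 1 (5.94%).

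Of the 80 tested members 67 had a log2 fold above 0, where 47.5% of all tested miRNAs did. Their median was 0.42, against -0.04 for the tested miRNAs outside the block. The filter bears on these counts: 44 of the 80 reached its level in all 6 libraries, 22 in all KO but not all WT libraries, 2 in all WT but not all KO libraries, and 12 in all of neither. The counts over tested members are therefore no support for a direction.

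Folds fitted without the filter cover all 352 detected members. Of these 221 were above 0 and 131 below (62.8% above), with a median log2 fold of 0.35; of 1213 detected miRNAs outside the block 44.9% were above 0, with a median of -0.06. Rows were then grouped by their total count, a split chosen after the data were seen. Among rows with 60 to 600 counts in all, 56 of 68 members were above 0 (82.4%, median 0.39), and 54.3% of 265 rows outside the block (median 0.05). Among rows with 1 to 59 counts, 158 of 276 members were above 0 (57.2%, median 0.32), and 47.2% of 417 rows outside the block (median -0.12). These are descriptions of the fitted folds, with no test.

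**Figure D3:**
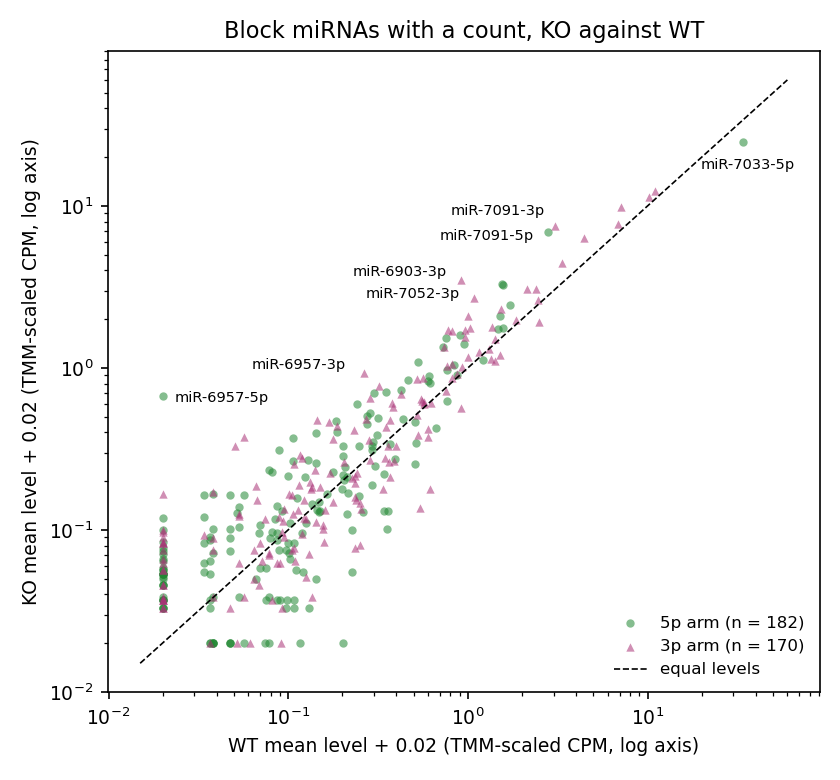
Mean level in KO against mean level in WT (TMM-scaled CPM plus 0.02, log axes, n = 3 libraries each) for the 352 block miRNAs with a count; circles are 5p arms, triangles 3p arms, the dashed line equal levels. miR-7033-5p lies below the line at 33.7 and 24.9 CPM, and miR-7091, miR-6903-3p, miR-7052-3p and miR-6957 lie above it.

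Both arms of miR-7091 stood at about the same level, and both were higher in every KO library. Its hairpin is a whole 79-base intron of Dnase1l1, a gene for a relative of DNase I (chromosome X, 74274027 to 74274105, minus strand). miR-7091-5p was found at 2.79, 3.07 and 2.50 CPM in WT and at 7.82, 6.85 and 5.94 CPM in KO. The lowest KO library lay above the highest WT library. Its log2 fold was 1.30 (SE 0.22), with the lowest adjusted p of the block (edgeR 0.061; DESeq2 0.00718; limma-voom 0.062), and over all alternatives the adjusted p ranged from 0.00718 to 0.555.

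miR-7091-3p stood at 3.83, 3.44 and 1.85 CPM in WT and at 7.21, 10.8 and 4.56 CPM in KO. The groups did not overlap, but KO library 6 lay close to WT library 1. The log2 fold was also 1.30, with a wider error (SE 0.41; edgeR adjusted p = 0.271).

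miR-6903-3p comes from an intron of Atp2b4, the gene of a plasma membrane calcium pump found in red cells (chromosome 1, 133726558 to 133726645, minus strand). It was at 0.820, 1.37 and 0.501 CPM in WT and at 3.28, 4.64 and 2.45 CPM in KO, from 10 to 33 counts and from 64 to 84 counts. All KO libraries were above all WT libraries. Like miR-7052-3p and both arms of miR-6957, it was named by a rule that required this, so the separation is no finding. The log2 fold was 1.92 (SE 0.43; edgeR adjusted p = 0.143; DESeq2 0.0219; range over the alternatives 0.0219 to 0.610).

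miR-7052-3p, from an intron of the deubiquitinase gene Josd2 (chromosome 7, 44470347 to 44470411), was at 0.874, 1.49 and 0.801 CPM in WT and at 2.72, 3.09 and 2.22 CPM in KO. Its log2 fold was 1.33 (SE 0.33, edgeR adjusted p = 0.193), and its groups did not overlap, as the naming rule required.

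miR-6957-5p was counted in KO libraries only. Its hairpin ends an intron of Grap2, which encodes an adaptor of blood cell signalling (chromosome 15, 80646073 to 80646136). The 3 WT libraries had 0, 0 and 0 counts and the KO libraries 11, 13 and 18. Taking 3 counts over the WT group as the limit of a count of 0, the pooled KO level was 13.6 times that limit. The figure leaves out the counting error of the KO reads and the spread between libraries, so it is no lower bound. The adjusted p was 0.0677 with edgeR, 0.0026 with DESeq2, 0.00342 with limma-voom and 0.0386 with edgeR without the filter, and 0.0026 to 0.367 over all alternatives. Every call rests on at most 18 reads per library. With 0 counts in WT, miR-6957-5p passed the filter of the main edgeR fit and of limma-voom through the KO libraries alone.

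The 3p arm of the same hairpin was present in both genotypes, but below the filter's level in every WT library and above it in every KO library. Like the 5p arm, it passed the filter through the KO libraries alone. miR-6957-3p had 7, 6 and 2 counts in WT and 11, 26 and 19 in KO (log2 fold 1.87, SE 0.60; edgeR adjusted p = 0.273). Of the other members, named after their values were seen, miR-6942-3p, miR-7031-3p and miR-6931-3p also had counts in every KO library and in no WT library, at most 4 reads each. The reverse was found for miR-7058-5p, with at most 6 reads, and miR-7012-5p, with at most 3. Neither pattern was counted over the rows outside the block, so these few rows are a description only.

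**Figure D4:**
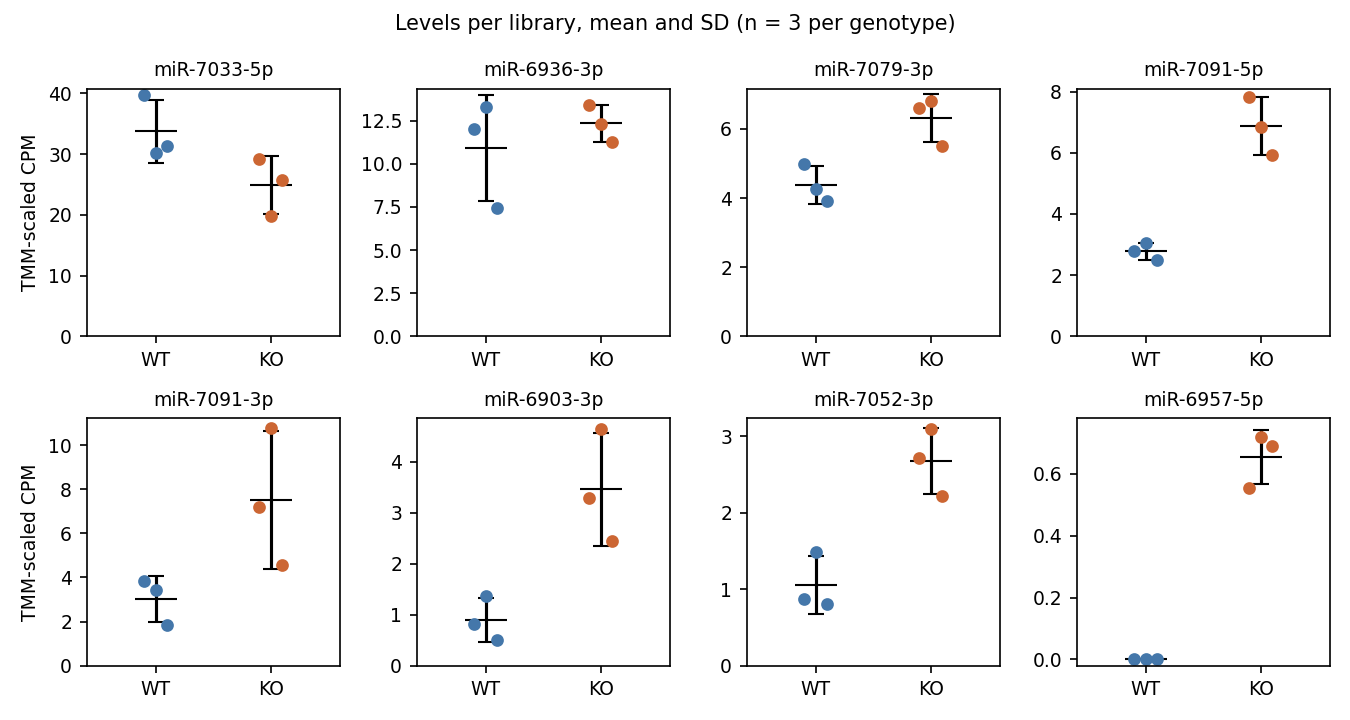
TMM-scaled CPM per library (points, axes from 0 or just below), with the mean and SD of 3 libraries per genotype (bars), for 8 block miRNAs. miR-7033-5p and miR-6936-3p are the most abundant. In the panels of miR-7079-3p, miR-7091, miR-6903-3p, miR-7052-3p and miR-6957-5p the KO points lie above all WT points. miR-6903-3p, miR-7052-3p and miR-6957-5p were named by a rule that required this, so for them it is no finding.

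DESeq2 called 3 members over all miRNAs, miR-7091-5p, miR-6903-3p and miR-6957-5p, of 334 with an adjusted p (1.0% of all miRNAs with one were called). limma-voom called miR-6957-5p alone of 80 tested (0.913% of all), and edgeR without the filter the same miRNA alone of 352 (0.447%). With no scaling factor edgeR called 8 of 80 members, where it called 6.96% of all tested miRNAs. All of these members were higher in KO.

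Mirtrons known from earlier work, which lie outside the number range, were set beside the block. miR-1224-5p, from Vwa5b2, passed the test, at 2.02, 1.16 and 1.602 CPM in WT and at 9.88, 12.5 and 12.4 CPM in KO (log2 fold 2.87, SE 0.28; edgeR adjusted p = 0.00418). It lost the call without KO library 5 (adjusted p = 0.0526). miR-877-5p averaged 20.6 ± 6.64 and 33.6 ± 1.12 CPM and miR-877-3p 8.46 ± 2.04 and 11.3 ± 0.726 CPM (SD, n = 3 each), without overlap and without a call (edgeR adjusted p = 0.356 and 0.564). For miR-702-3p the log2 fold was 0.11 (SE 0.31), for miR-702-5p 0.02 (SE 0.41) with a negative sign under RLE scaling (-0.048), with the locus removed (-0.074) and in DESeq2 (-0.039), and for miR-3102-3p -0.64 (SE 0.37). Of the 10 rows of these 4 miRNAs, 6 were tested and 1 was called.

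The arms of a hairpin were used unequally, and the 3p arm led more often. Among 166 hairpins with both rows, 158 had counts for both arms, 7 for the 5p arm alone and 1 for the 3p arm alone. Of 68 hairpins with at least 60 counts, 45 (66.2%) had more 3p than 5p counts, and 24 of them took at least 90% of their counts from the 3p arm; 5 took at least 90% from the 5p arm. Outside the block 173 of 361 such hairpins (47.9%) had more 3p counts. The difference was not tested.

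At the ends of this order stood miR-6944, with 1 count of the 5p arm and 279 of the 3p arm, and miR-7073, with 204 of the 5p and 0 of the 3p arm, both named after their values were seen. miR-7033 gave 3691 counts from its 5p arm and 18 from its 3p arm. That 1 row sets the block's summed arm share: 5p arms made up 42.5%, 40.7% and 41.0% of block counts in WT and 39.4%, 36.7% and 38.0% in KO, and without miR-7033-5p 27.0%, 29.0% and 26.7% in WT and 30.0%, 30.3% and 29.6% in KO. The order of the genotypes turns with that row.

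In 11 block hairpins both arms averaged 10 counts or more. miR-6936 and miR-6967 were led by their 3p arms, with 5p shares of 12.4% and 14.2% over all libraries (8.90% to 15.8% and 10.5% to 18.6% in single libraries). miR-7042, miR-6948 and miR-7052 followed at 34.8%, 35.9% and 39.8%. miR-7091 was nearly even at 48.5%, between 38.9% and 57.5% in single libraries, and miR-6994 stood at 42.5%. The 5p arm led in miR-7026 (58.4%), miR-6902 (60.9%), miR-7036b (62.9%) and miR-7063 (63.7%).

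Arm use did not differ detectably between the genotypes. Of the 11 hairpins 0 passed limma's test of the log2 ratio of 5p to 3p counts, adjusted over all 263 hairpins tested (adjusted p 0.818 to 0.994), and 0 had an unadjusted p under 0.05; over all tested hairpins 0.0% passed and 5.7% had an unadjusted p under 0.05. The ratio of miR-7091 changed by 0.01 (SE 0.39) from WT to KO on the log2 scale, so no shift between its arms was seen within the error. The change farthest from 0 was that of miR-7063, at -1.02 (SE 0.56; limma adjusted p = 0.818), where the 5p share averaged 73.2% ± 10.3 in WT and 55.8% ± 12.3 in KO (SD, n = 3 each). At 66 to 116 counts per arm over all libraries, a change of this size was within the error. Hairpins with fewer counts were not tested. Among them miR-6957, with 42 counts of the 5p and 71 of the 3p arm, had a mean 5p share of 0.0% in WT and 44.0% in KO. miR-7059 and miR-6983 were named after their values were seen, with 23 and 25 counts of the 5p arm and 39 and 106 of the 3p arm. The mean share of miR-7059 was 28.5% in WT and 66.0% in KO, and that of miR-6983 27.3% in WT and 9.74% in KO. Shares from so few counts are a description only. How many other untested hairpins shifted as much was not counted.

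**Figure D5:**
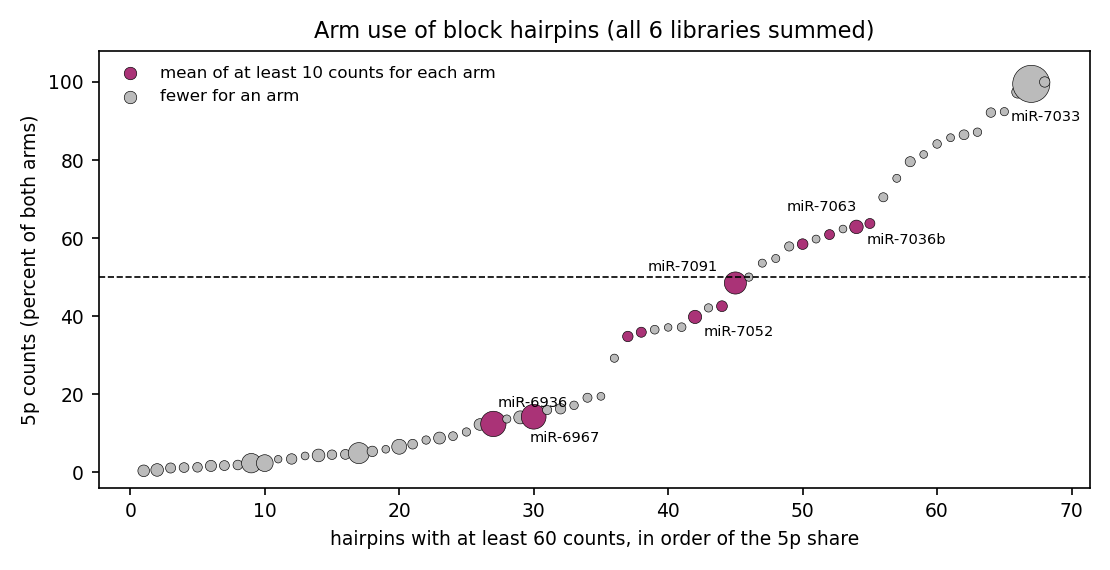
Share of 5p counts (percent of both arms, 6 libraries summed) for the 68 block hairpins with at least 60 counts, in order of that share; the area of a point grows with the counts, and magenta marks the 11 hairpins whose arms both averaged 10 counts or more. Points below the dashed line at 50% are led by the 3p arm, and miR-7033, the largest point, lies near 100%.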

How the data were processed

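Small RNA libraries were made with the NEXTflex kit and sequenced on a HiSeq2000, per the labels. The deposited table gives the authors' raw read counts per mature miRNA and library. The deposited percent columns are the authors' counts over each library total and were not used. The submitters' processing notes name cutadapt; aligner, annotation and build are not given in the sources used here. Counts were fitted in R 4.3.3 with edgeR 4.0.16 (quasi-likelihood test, TMM scaling, filterByExpr) over the whole table, with Benjamini-Hochberg adjustment and a threshold of 0.05. SE is the absolute log2 fold over the square root of F, an approximation. As alternatives, limma-voom (limma 3.58.1) and DESeq2 1.42.0 were run. Arm ratios were log2((5p + 1)/(3p + 1)), tested with limma trend at a mean of at least 10 counts per arm. Detection at equal depth is a hypergeometric expectation. Code was tested on simulated counts. Named were the 12 most abundant members, called members, up to 5 per direction by fold among those without overlap, hairpins with the 4 highest, 4 lowest and 3 most even 5p shares, members with 60 or more counts mostly from 1 library (none was found), and miR-877, miR-1224, miR-702 and miR-3102. Members and lists were chosen with earlier results of these data known.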

Additional observations from a re-analysis of the deposited data

How the results depend on the processing

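No paired analysis was possible because WT libraries are numbered 1 to 3 and KO libraries 4 to 6. The count of called members was 0 with TMM, RLE and upper-quartile scaling, with the locus removed, with a mean of at least 5 counts and without each library; it was 8 unscaled (6.96% of all tested miRNAs were called), 3 with DESeq2, 1 with limma-voom and 1 without a filter. The members' median log2 fold was 0.42 and became 0.35 with RLE, 0.51 with upper-quartile scaling, 0.77 unscaled, 0.32 once the locus rows were removed, 0.35 without a filter, 0.31 with DESeq2 and 0.32 to 0.46 without a library. Unscaled, the median of all tested miRNAs was 0.34, against -0.01, and the share of miRNAs outside the block above 0 was 82.7%, against 43.8% with TMM, 36.1% with RLE and 59.4% with upper-quartile scaling. The members' median stood above that of the other miRNAs by 0.34 to 0.54 in every setting. The settings share the same libraries, and most of them apply the filter on low counts, so this range is no support for a direction. Detection stood at 352 members with 1 count, 213 with at least 10 and 147 with a count in every library, and both arms at 158, 65 and 28 hairpins. Of 1000000 reads the block took 156 in WT and 245 in KO. Leaving the locus out of the total gave 197 for WT, and leaving out miR-7033-5p gave 126 and 217. The summed 5p share over hairpins with both rows was 39.3%, and 28.1%, 31.0% and 26.9% over hairpins with at least 5, 10 and 20 counts per arm, and 27.7% without miR-7033, an alternative added later. Folds that turned sign without a library were those of miR-6936-3p (-0.10 to 0.27), miR-7015-3p (-0.12 to 0.30), miR-7068-3p (-0.18 to 0.19), miR-702-3p (-0.11 to 0.31) and miR-702-5p (-0.22 to 0.39), the last also with RLE (-0.048), the locus removed (-0.074) and DESeq2 (-0.039). Arm ratio changes that turned sign were those of miR-6936 (-0.20 to 0.17), miR-7026 (-0.14 to 0.78), miR-7091 (-0.20 to 0.31) and miR-6994 (-0.32 to 0.70). None of these had passed a test, and the cause was not tested. Most members have under 10 counts per library, which limits what a difference can show.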
